A study of Mus musculus with 6 samples.

Results

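The transcripts of the glucocorticoid receptor, of the chaperones and immunophilins that hold it, and of coactivators it recruits were followed in mIMCD3 cells, a mouse line of the inner medullary collecting duct, after 1 h with aldosterone or with vehicle. The genes were Nr3c1, Hsp90aa1, Hsp90ab1, Fkbp4, Fkbp5, Stip1, Ncoa1 and Ncoa2, and every probe set whose only annotated symbol was one of them was taken. This gave 9 of the 12422 probe sets on the array, for 7 of the 8 genes and of the 8251 genes with such a probe set. Hsp90ab1 had no probe set with that single symbol in the annotation used, so it is not analysed here. RNA was measured on 6 single-colour arrays, 3 from cells given aldosterone and 3 from cells given vehicle, and each of 3 replications of the experiment supplied 1 array of each kind. The labels state neither the hormone dose nor whether the replications came from separate cultures, so p-values cover only how far these samples vary, and that variation may be technical. The labels name the same line for both groups and no genetic change in either.

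Aldosterone and glucocorticoids act through related nuclear receptors. Without hormone, the glucocorticoid receptor sits in the cytoplasm in a complex with the chaperone Hsp90. Stip1 brings Hsp70 and Hsp90 together while the complex is built, and the immunophilins Fkbp4 and Fkbp5 compete for one docking site on Hsp90. Fkbp4 is linked to transport of the receptor to the nucleus, and Fkbp5 lowers hormone binding. Once on DNA, the receptor recruits p160 coactivators, among them Ncoa1 and Ncoa2. Fkbp5 is also a well known target of the receptor in many tissues, which gives it a place on both sides of the pathway. The mineralocorticoid receptor binds aldosterone with high affinity and uses the same chaperones. Its gene, Nr3c2, had no probe set with that single symbol in the annotation used, so it is not analysed here.

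The proximal promoters of 3 chaperone genes are shown with 1 of the 6 windows of Sgk1, a kinase gene known to respond to aldosterone. Motifs of the steroid receptors and of the heat shock factor were looked for in them. Each window runs from 250 bases before the annotated start to 50 bases after it, from RefSeq on assembly GRCm38.p6, and windows of Fkbp4, Fkbp5, Stip1 and Ncoa1 were used. Capitals mark 3 kinds of motif, read on both strands: the full receptor palindrome (AGAACA, 3 bases of any kind, then TGTTCT), the pair of heat shock units GAANNTTC or TTCNNGAA, and the CCAAT box, which is ATTGG on the other strand. The windows lie at chr17:28486100-28486399 (minus strand), chr6:128438607-128438906 (minus strand), chr19:7039977-7040276 (minus strand) and, for Sgk1, chr10:21993640-21993939 (plus strand).
Fkbp5: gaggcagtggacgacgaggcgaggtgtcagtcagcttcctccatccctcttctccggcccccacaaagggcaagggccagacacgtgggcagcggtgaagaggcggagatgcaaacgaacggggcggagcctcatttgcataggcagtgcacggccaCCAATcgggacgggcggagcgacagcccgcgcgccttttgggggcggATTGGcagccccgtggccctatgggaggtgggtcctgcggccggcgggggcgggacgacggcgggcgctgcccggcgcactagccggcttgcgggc
Fkbp4: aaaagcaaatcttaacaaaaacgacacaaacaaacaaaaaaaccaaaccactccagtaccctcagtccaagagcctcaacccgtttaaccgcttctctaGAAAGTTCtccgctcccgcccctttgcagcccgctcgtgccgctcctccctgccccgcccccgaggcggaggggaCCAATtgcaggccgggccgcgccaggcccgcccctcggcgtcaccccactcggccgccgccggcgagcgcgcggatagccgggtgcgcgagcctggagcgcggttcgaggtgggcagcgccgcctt
Stip1: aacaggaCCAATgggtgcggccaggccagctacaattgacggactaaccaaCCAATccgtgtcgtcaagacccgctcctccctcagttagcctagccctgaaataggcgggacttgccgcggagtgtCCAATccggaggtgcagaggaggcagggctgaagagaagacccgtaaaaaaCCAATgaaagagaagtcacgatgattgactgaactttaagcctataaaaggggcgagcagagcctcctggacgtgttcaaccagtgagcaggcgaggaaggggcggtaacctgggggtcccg
Sgk1: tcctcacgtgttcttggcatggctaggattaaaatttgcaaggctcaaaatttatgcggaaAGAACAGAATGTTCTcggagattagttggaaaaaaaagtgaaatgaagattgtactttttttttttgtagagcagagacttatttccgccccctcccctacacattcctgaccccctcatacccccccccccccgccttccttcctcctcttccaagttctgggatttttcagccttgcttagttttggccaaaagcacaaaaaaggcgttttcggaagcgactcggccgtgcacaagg

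The window of Sgk1 shown is the 1 of 6 for that gene that held the full receptor palindrome. There it started 189 bases before the start annotated for that window, and the other Sgk1 windows did not hold it. The palindrome was in 3 of the 32851 promoter windows (0.00913%), and in none of the 4 windows of the receptor's partners. Nor was it in the windows of Per1, another gene known to respond to the hormone, where CCAAT boxes and GC boxes (GGGCGG or CCGCCC, in 35.7% of windows) were the motifs found. Inside it in Sgk1 lies a pair of heat shock units, so these motifs overlap. Fkbp4 had 1 pair of heat shock units, a motif held by 15.1% of windows, and Stip1, Fkbp5 and Ncoa1 had 0. The CCAAT box was in 37.4% of windows. Stip1 held 4 of them, a number reached by 1.06% of windows, Fkbp5 held 2 and Fkbp4 held 1. A match describes letters in a short window and is not a bound site, and its absence there says nothing about the receptor, whose sites often lie far from a start.

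The deposited intensities were put on a common scale, since the aldosterone array of replication 3 had a deposited trimmed mean of 86.5 units and the other 5 arrays had 2488 to 2493. Its steps of 1 decimal correspond to 2.42 units after scaling, against 0.0838 to 0.0840 units on the other arrays. A probe set was tested if its mean of log2(intensity + 53.0) over the 6 arrays reached 8.87, which 7453 did, among them 8 of the 9 probe sets here. Arrays of one replication correlated across probe sets at Pearson's r of 0.962 to 0.976, and arrays of different replications at 0.936 to 0.958. Of 25 collecting duct and epithelial markers 20 were on the array and 12 were bright enough to be tested. Those included the keratins Krt8 and Krt18, the kidney cadherin Cdh16 and the transcription factor Hoxb7, while the water channel Aqp2 and the vasopressin receptor Avpr2 were too dim. Of the markers of other cell types that were on the array, 1 of 6 endothelial, 2 of 6 leukocyte, 4 of 9 fibroblast, 3 of 8 proximal tubule and 2 of 3 intercalated cell genes were bright enough.

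Nr3c1, the receptor itself, read 395, 539 and 587 units on the aldosterone arrays of replications 1, 2 and 3, against 529, 212 and 879 on the vehicle arrays. The vehicle arrays held both the lowest and the highest value, and the aldosterone arrays lay between them, so the groups overlapped. In RNA of whole cultures, fewer cells of a type and less RNA per cell cannot be told apart. The means were 507 ± 100 with aldosterone and 540 ± 334 with vehicle (SD, n = 3 each). On the log2 scale the receptor was lower with aldosterone by 0.38 in replication 1 and by 0.54 in replication 3, but higher by 1.16 in replication 2. The mean of these was 0.08 (standard error 0.450, limma, adjusted p = 0.9995). In fold, the 95% interval ran from 0.524 to 2.13, and with the replication as a block from 0.580 to 1.93. These 6 arrays do not exclude a difference within those bounds. The direction rested on the vehicle array of replication 2. Without it the log2 difference was -0.41, without both arrays of replication 2 it was -0.46, and without the aldosterone array of replication 3 it was -0.03.

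The chaperone transcripts were steadier. Hsp90aa1, the inducible form of Hsp90, read 35767, 40800 and 42698 units with aldosterone, against 47002, 34707 and 38518 with vehicle, in its bright probe set. Within the replications the log2 difference was -0.39, 0.23 and 0.15, and its mean was -0.004 with a standard error of 0.136, or 0.807-fold to 1.23-fold (95% interval). No replication order was shared by the groups: replication 1 was the lowest of the aldosterone arrays and the highest of the vehicle arrays. A second probe set of Hsp90aa1, with the suffix that the manufacturer uses for incomplete sets, was too dim to be tested. It read 186, 184 and 104 units with aldosterone and 116, 126 and 112 with vehicle. Its log2 difference of 0.28 had a standard error of 0.357 (limma with no filter, adjusted p = 0.9996), and the groups overlapped.

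Stip1, the organising co-chaperone that links Hsp70 to Hsp90, was the steadiest of these transcripts. It read 7296, 7925 and 6994 units with aldosterone, against 7500, 7428 and 7391 with vehicle. All 6 arrays lay within a factor of 1.13, and only 0.953% of tested probe sets had so small a standard deviation over the arrays. Among the brightest of 4 equal bands of tested probe sets, where spread is smaller in general, 2.41% were at or below it. Between treatments it differed by -0.009 on the log2 scale (standard error 0.124), which bounds the fold between 0.820 and 1.21, or between 0.863 and 1.14 with the replicate block. The 3 vehicle arrays (SD 55.3 units) lay inside the range of the 3 aldosterone arrays (SD 475 units).

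The immunophilins gave no call either, and the 2 probe sets of Fkbp4 disagreed. Fkbp5, which reduces the receptor's hormone binding and is itself induced by glucocorticoids in many cells, read 2955, 3688 and 3735 units with aldosterone, against 3228, 3677 and 3465 with vehicle. Replication 1 had the lowest value in both groups, and the groups overlapped. The log2 difference was -0.13, 0.004 and 0.11 within the replications and -0.005 on average (standard error 0.157). The 95% interval of 0.780-fold to 1.27-fold, or 0.833-fold to 1.19-fold with the replicate block, ended below the intervals of 2 genes known to respond to the hormone. Sgk1 read 3043, 2311 and 2638 units with aldosterone, against 1059, 805 and 640 with vehicle, and the clock gene Per1 read 2765, 3047 and 2265, against 1119, 981 and 1170. Their intervals were 2.19-fold to 4.39-fold and 1.79-fold to 3.19-fold, although with adjusted p = 0.242 on group alone neither passed over all probe sets (limma). The replicate block gave Sgk1 an adjusted p of 0.0509 and Per1 one of 0.0722, and the block with no filter, an alternative chosen after seeing the data, gave 0.0202 and 0.0412, so both passed there (limma). In both genes every aldosterone array lay above every vehicle array, and in Fkbp5 the arrays overlapped; the difference between the responses was not tested.

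Fkbp4, the immunophilin linked to nuclear transport of the receptor, had 2 probe sets drawn from the same transcript record. The first, of the kind that recognises a sequence family, read 11411, 10531 and 10942 units with aldosterone, against 11309, 12707 and 9193 with vehicle. The second, of the kind designed with relaxed rules, read 6199, 6135 and 5981 units with aldosterone, against 5918, 4884 and 5799 with vehicle. In the second all 3 aldosterone arrays lay above all 3 vehicle arrays, and in the first they did not. Non-overlap in that direction was seen for 1.91% of tested probe sets, and for 1 of the 8 here. The exact permutation test, two-sided and without regard to replication, gave p = 0.1 for the second, the smallest p that 3 against 3 arrays allow. That p follows from the non-overlap itself and adds nothing to it. The second probe set gave 0.15 on the log2 scale (standard error 0.136) and the first gave -0.002 (standard error 0.144). Limma's adjusted p was 0.9995 for both. In replication 2 they moved in opposite directions, with -0.27 in the first and 0.33 in the second. Across the 6 arrays their log2 values correlated at r = -0.52, where the median over the 941 genes with at least 2 tested probe sets was 0.23 and 9.78% had a value as low. Without the vehicle array of replication 2, and likewise without both arrays of that replication, the second probe set's difference was 0.06.

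The p160 coactivators varied widely, Ncoa2 the most of the 8 tested probe sets. Ncoa2 read 621, 594 and 529 units with aldosterone, against 250, 144 and 704 with vehicle. The aldosterone arrays were close to each other, while the vehicle arrays spanned a factor of 4.90 and contained both the lowest and the highest value. Its log2 difference of 0.83 had a standard error of 0.474, an interval of 0.849-fold to 3.73-fold and an adjusted p of 0.9995 by limma. In size this difference lay at the 99.4th percentile of all tested probe sets and at the 98.3rd of the dimmest band. It was higher in replications 1 and 2, by 1.15 and 1.72, and lower in replication 3, by 0.38. Ncoa2 passed the brightness limit by little, at a mean of 8.89, and did so through the aldosterone arrays, whose mean was 9.31 against 8.48 for vehicle. Without the vehicle array of replication 2 its difference was 0.40 and without both arrays of that replication 0.39; without the vehicle array of replication 3 it was 1.38, and without both arrays of replication 3 it was 1.44.

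Ncoa1, the founding member of the p160 family, read 921, 637 and 1061 units with aldosterone, against 862, 391 and 901 with vehicle. It was higher with aldosterone in 3 of 3 replications, by 0.09, 0.64 and 0.22 on the log2 scale, and replication 2 was the lowest in both groups. The mean difference was 0.32 with a standard error of 0.346, which was 0.236 with the replicate block (adjusted p = 0.9995 and 0.998 by limma). The groups overlapped. Of its sum of squares over the 6 arrays, 80.3% lay between replications, 12.8% between treatments and 6.91% in the remainder. The share between replications ran from 13.5% (Hsp90aa1) to 84.5% (Fkbp5) over the other tested probe sets here. These shares are no test, since 3 replications take up more of the spread than 2 treatments even with no effect. Limma's F test over replications gave Ncoa1 an adjusted p of 0.129 and Fkbp5 one of 0.395. Without the vehicle array of replication 2 the difference of Ncoa1 was -0.04, with replication 2 then present among the aldosterone arrays alone. Being higher in every replication was shared by 2 of the 8 probe sets, Ncoa1 and the second of Fkbp4, and by 10.5% of all tested ones. None of the 8 was lower in every replication, against 11.5%.

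**Figure D1:**
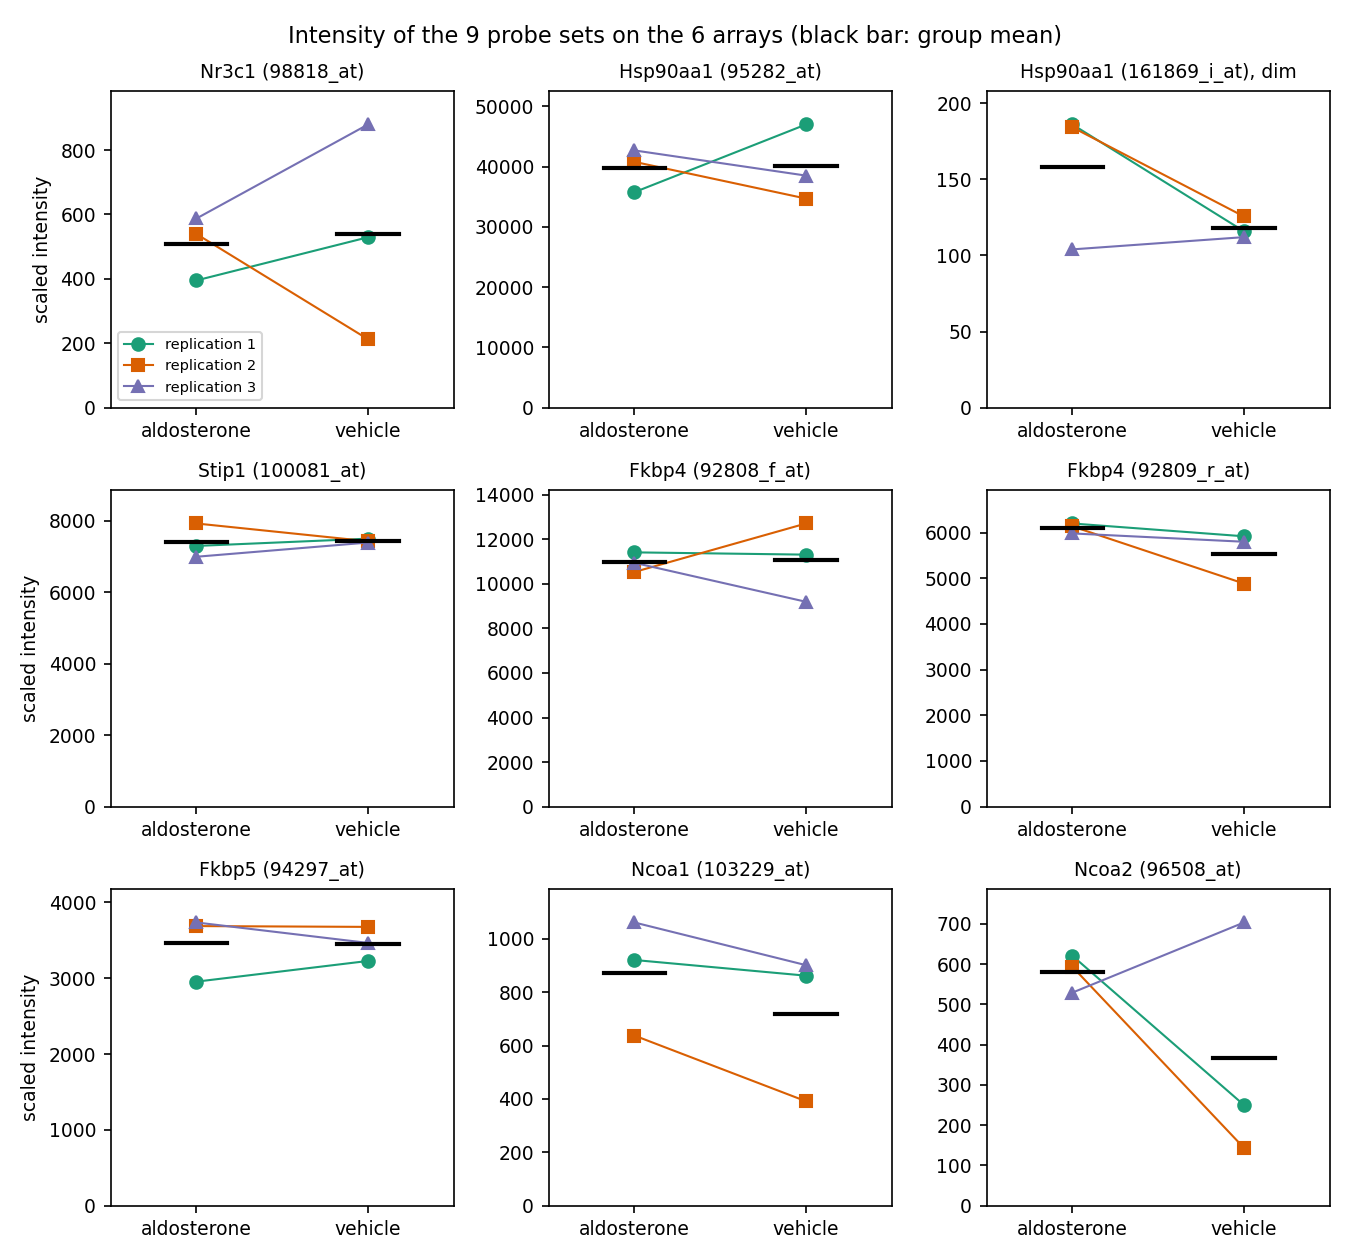
Scaled intensity (arbitrary units, axis from 0) of the 9 probe sets on the aldosterone arrays (left) and the vehicle arrays (right), with 1 line per replication and the group mean as a black bar. Stip1 stayed between 6994 and 7925 units on all arrays, while the vehicle arrays of Nr3c1 and Ncoa2 held both their lowest and their highest value.

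Over all probe sets, no member passed the test of the treatment. By limma, with treatment as the single term, 0 of the 8 tested probe sets and 0 of all 7453 (0%) had an adjusted p under 0.05, and 0 of the 8 and 72 of the 7453 (0.966%) had an unadjusted p under 0.05. With the replicate block 0 of the 8 and 250 of the 7453 (3.35%) had an unadjusted p under 0.05, and again 0 passed after adjustment. By sign, 4 of the 8 were higher and 4 lower, against 3721 and 3732 of all tested. The 4 with the smallest differences, Hsp90aa1, the first Fkbp4 probe set, Fkbp5 and Stip1, were all under 0.01 in size on the log2 scale, as were 5.45% of all tested probe sets and 9.87% of the brightest band. The intervals were narrower for the bright members. With the replicate block those of Hsp90aa1, Stip1, Fkbp5 and the first Fkbp4 probe set lay between 0.833-fold and 1.19-fold. On group alone the same intervals lay between 0.780-fold and 1.27-fold. The blocked interval of the second Fkbp4 probe set ran from 0.942-fold to 1.30-fold. These widths depend on the intensity trend. Without it the blocked standard error of Hsp90aa1 was 0.165 instead of 0.112, and that of Fkbp5 was 0.114 instead of 0.115. Hsp90aa1 read 0.761-fold in replication 1, outside its blocked interval. Intervals were wider for the receptor and the coactivators, where the blocked intervals of Nr3c1, Ncoa1 and Ncoa2 reached 1.93-fold, 1.80-fold and 3.47-fold.

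**Figure D2:**
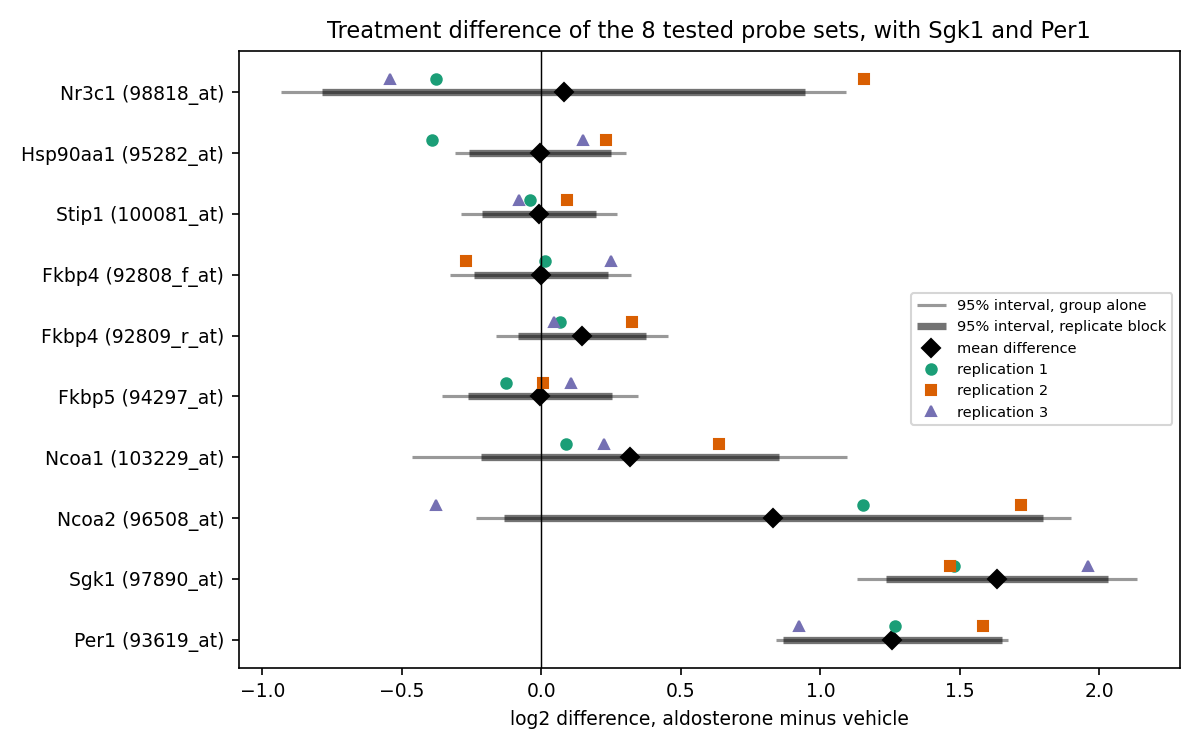
Log2 difference, aldosterone minus vehicle, of the 8 tested probe sets and of Sgk1 and Per1: the mean (diamond), the 3 replications (coloured points) and 95% intervals from limma on group alone (thin) and with the replicate block (thick). The intervals of all 8 include 0; those of Sgk1 and Per1 start at 2.19-fold and 1.79-fold on group alone.

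The steady chaperones and the scattered receptor and coactivators also differed in the brightness of their probe sets. Hsp90aa1, Stip1 and both Fkbp4 probe sets lay in the brightest band and Fkbp5 in the next one, and their standard deviations over the 6 arrays were 0.06 to 0.16 on the log2 scale. Nr3c1, Ncoa1 and Ncoa2 lay in the dimmest band, with 0.61, 0.48 and 0.78. The median standard deviation was 0.17 in the brightest band and 0.36 in the dimmest. Within the dimmest band, Ncoa2 lay at the 93.8th percentile of spread, Nr3c1 at the 85.6th and Ncoa1 at the 72.8th. Within their own bands, the chaperone and immunophilin probe sets lay between the percentiles 2.41 (Stip1) and 46.1 (Hsp90aa1). The part of brightness in the contrast was not tested. Brightness is a property of the probes as well as of the transcript, so these ranks are no comparison of abundance between genes.

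**Figure D3:**
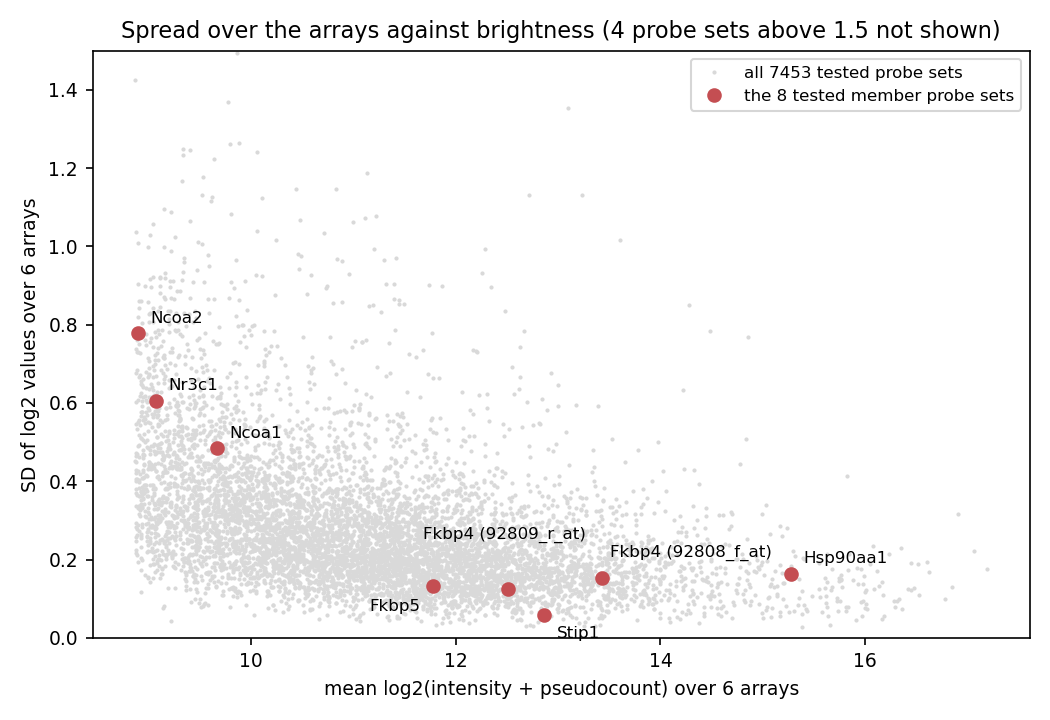
Standard deviation of log2 values over the 6 arrays against their mean, for all 7453 tested probe sets (grey) and the 8 tested members (red); 4 probe sets above 1.5 are not shown. Nr3c1, Ncoa1 and Ncoa2 sit at the dim end between 0.48 and 0.78, the other members between 0.06 and 0.16.

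The vehicle array of replication 2 gave the lowest value of Nr3c1, Hsp90aa1, the second Fkbp4 probe set, Ncoa1 and Ncoa2, 5 of the 8 tested probe sets. It was the lowest array for 22.2% of all tested probe sets and for 22.5% of those in the dimmest band. The same array was the highest for 20.2% of all tested probe sets and for 25.3% of the dimmest band, so it was extreme in both directions more often than any other array in these sets. In the brightest band, where Hsp90aa1 and Fkbp4 lie, it was the lowest for 18%, against 21.6% for the vehicle array of replication 3 and 18.8% for the aldosterone array of replication 1. Its part in the differences of these genes was not tested beyond the values without it given above. Averaged over both treatments, replication 2 was also the lowest for Nr3c1, Ncoa1 and Ncoa2, and replication 3 the highest, with 1.95-fold, 1.86-fold and 1.86-fold between them. Without the aldosterone array of replication 2 these became 2.91-fold (adjusted p = 0.0550 by limma's F test), 2.32-fold and 3.38-fold, and without the vehicle array of that replication 1.51-fold, 1.49-fold and 1.47-fold. The other 5 tested probe sets differed by 1.07-fold to 1.19-fold between replications. Limma's F test over replications, with treatment in the model, called 0 of the 8 at an adjusted p under 0.05, against 583 of 7453 (7.82%). The smallest value was that of Ncoa1 (adjusted p = 0.129), the 1 member with an unadjusted p under 0.05, a mark passed by 27.5% of all tested probe sets. Without the aldosterone array of replication 2 there were 3 such members and still 0 called. That setting also raised the number of probe sets called over the whole array, as given in the last section. The rise is thus not particular to the members. Markers of the cells differed between replications too: the F test called 3 of the 12 tested collecting duct markers, namely the claudins Cldn4 (4.81-fold, adjusted p = 0.000381) and Cldn7 (3.09-fold, 0.000940) and the keratin Krt7 (2.39-fold, 0.00598), all lowest in replication 3. These 3 were named after their values were seen. Without the intensity trend the F test called 2 probe sets over the whole array. At most 2 of the genes named as called here and below would therefore remain. The summed intensity of the 20 markers on the array was 68807 to 92452 with aldosterone and 73716 to 97888 with vehicle, and replication 3 was the lowest in both groups. Aqp2 and Avpr2, which define the principal cell, were below the brightness limit. The part of these markers in the members' differences was not tested.

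Over the 6 arrays, log2 values of Nr3c1 correlated at r = 0.75 with Ncoa1 and 0.75 with Ncoa2, and those of Ncoa1 with Ncoa2 at 0.70. The second Fkbp4 probe set correlated at 0.81 with Ncoa1 and 0.80 with Ncoa2, and all of these share their lowest value on the vehicle array of replication 2. The first Fkbp4 probe set ran against the receptor at r = -0.94, with its highest value on the vehicle array of replication 2 and its lowest on that of replication 3, where the receptor had the reverse. Stip1 and Fkbp5 were at -0.03 and 0.004 with the receptor. The 6 arrays share replications and scaling, and single arrays decide such values, so they are descriptions only. The genes whose log2 values were most like those of Nr3c1 over the 6 arrays were Apaf1 (r = 0.991), Gmip (0.979), Rab5b (0.974), Rad50 (0.974) and Ccdc12 (0.973). For each of these the vehicle array of replication 2 was the lowest and that of replication 3 the highest. Of the 6741 probe sets with 1 symbol compared, 125 (1.85%) had an r of at least 0.9.

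Other parts of the receptor's machinery were likewise without a call. Of 26 symbols listed as receptor co-chaperones 22 were on the array and 21 were tested, counting each gene by its brightest probe set. Aldosterone gave the higher mean in 13 and the lower in 8, and the median difference was 0.02 on the log2 scale, against -0.002 over all 5640 tested genes, and 0 passed in either direction. Hspa8, the constitutive Hsp70 that loads the receptor onto Hsp90, had the smallest p among them by the brightest probe sets. It read 23053, 13683 and 21264 units with aldosterone, against 25422, 17353 and 23860 with vehicle. It was lower in 3 of 3 replications, as were 11.7% of tested genes, with a mean difference of -0.22 on the log2 scale (standard error 0.215), and its unadjusted p was 0.0193 with the replicate block (adjusted p = 0.998). The arrays of replication 2 were the lowest in both groups, and Hspa8 differed between replications by 1.57-fold (F test, adjusted p = 0.00908). Fkbp8, an immunophilin of mitochondria and endoplasmic reticulum, had 0.12, and the deacetylase Hdac6, which acts on Hsp90, had 0.04 with a difference between replications of 1.39-fold (adjusted p = 0.0354). Hspa8 and Hdac6 were the 2 of the 21 (9.52%) that the F test called, against 7.73% of all tested genes.

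Steps of the chaperone cycle named for their role, after their values were seen, gave no call. The Hsp40 proteins Dnaja1 and Dnajb1 had log2 differences of 0.07 and 0.03, St13, which stabilises the Hsp70 step, had -0.004, the immunophilin Ppid had -0.01, the phosphatase Ppp5c, which shares the docking site of the immunophilins, had 0.07, and the ubiquitin ligase Stub1 had -0.05. Their standard errors were 0.145 to 0.249. A dimmer probe set of St13 gave 0.23 with 0.164. Of 17 other heat shock factor targets 15 were on the array, 7 of the 17 being co-chaperones listed above, and 14 were tested, with 6 higher and 8 lower, a median of -0.04 and 0 calls. The F test over replications called 1 of the 14 (7.14%, against 7.73%), Hspa8. Beside it, the mitochondrial chaperone Hspd1 had -0.09 with a standard error of 0.108, while its dimmer probe set had -0.50 with 0.551. In its brighter probe set Hspd1 was lower in 3 of 3 replications, as were 11.7% of tested genes. Its groups there did not overlap, as for 2.27% of tested probe sets in that direction. The inducible Hsp70 gene Hspa1b had 0.05 with 0.198.

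Coactivators and corepressors other than Ncoa1 and Ncoa2 numbered 38 listed, 32 on the array and 28 tested, with 14 higher, 14 lower, a median of -0.01 and 0 calls. Tgfb1i1, also known as Hic-5, a coactivator of steroid receptors, had the smallest p. It read 1958, 1654 and 1509 units with aldosterone, against 1370, 1616 and 980 with vehicle, and differed by 0.38 on the log2 scale (standard error 0.224). Tgfb1i1 was higher in 3 of 3 replications, as were 10.5% of tested genes. The SUMO ligase Pias1 had -0.29 with 0.263 and was lower in 3 of 3, as were 11.7% of tested genes. Ncoa3, the third p160 member and named after its value was seen, had 0.24 with a standard error of 0.246. The F test over replications called 3 of the 28 (10.7%, against 7.73% of all tested genes), namely the Mediator subunit Med1, the helicase Ddx5 and, named after its value was seen, the corepressor Nrip1. All 3 were lowest in replication 2, as were 182 of the 436 genes called over the whole array (41.7%), and Med1 differed most, by 2.35-fold (adjusted p = 0.00709).

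Genes for transport and turnover of the receptor numbered 20 listed, 17 on the array and 16 tested, with 6 higher, 10 lower, a median of -0.03 and 0 calls. The 14-3-3 protein Ywhah read 12676, 12522 and 12861 units with aldosterone, against 14729, 13270 and 14373 with vehicle. Its aldosterone arrays lay below all its vehicle arrays, as for 2.27% of tested probe sets, and they differed by -0.15 on the log2 scale (standard error 0.113). The import receptor Ipo7, which carries the glucocorticoid receptor to the nucleus, had 0.17 with 0.215. The F test called 3 of the 16 (18.8%, against 7.73% of all tested genes): the importin Kpna2 (1.81-fold between replications, adjusted p = 0.00920), the dynein chain Dync1i2 (1.61-fold, 0.0376) and, named after its value was seen, the exportin Xpo1 (1.51-fold, 0.0442). Replication 2 was the lowest for all 3. Of 6 other steroid receptor and steroid enzyme genes, 4 were on the array (Pgr, Esr1, Hsd11b1 and Hsd11b2) and 0 were bright enough to be tested.

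**Figure D4:**
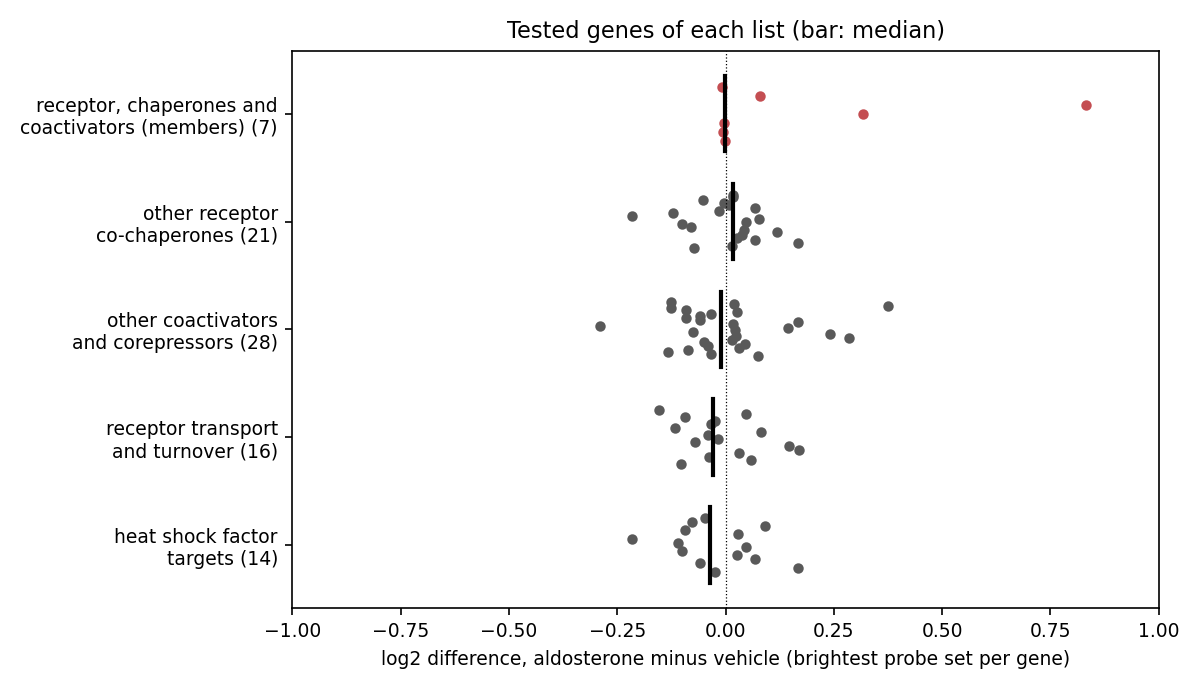
Log2 difference, aldosterone minus vehicle, of every tested gene of the receptor group (red) and of 4 lists of related genes (grey), each gene by its brightest probe set, with the number of genes in brackets and the median as a bar. Apart from Ncoa2 at 0.83, the genes lie between -0.29 and 0.38; some genes are on both the co-chaperone and the heat shock lists.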

How the data were processed

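RNA of 6 samples was hybridised to 6 single-colour arrays. The values are intensity values per probe set as deposited by the authors, in 1 decimal; the sources used here do not give the software or settings behind them. Probe sets were named through the platform annotation: 10833 had 1 symbol, 396 several and 1193 none.

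Each array was scaled to a 2% trimmed mean of 2090, since one was deposited on a lower scale, and log2(value + 53.0) was taken, 53.0 being the 10th percentile of scaled values, so folds of dim probe sets are understated. Probe sets with a mean of at least 8.87 (40th percentile) were tested with limma 3.58.1 in R 4.3.3 (lmFit and eBayes with an intensity trend) on group alone, adjusted by Benjamini-Hochberg over 7453 probe sets, and replications by an F test with group in the model. The number of arrays limits the precision. Both steps were tested on simulated data with independent arrays, no filter and no pseudocount. That simulation does not cover the pairing by replication or the settings used here. Values on a linear scale are scaled intensities.

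Replication numbers come from the labels. Deviations from the group means correlated within a number at 0.377, 0.387 and 0.471, so the numbers pair the arrays. Between numbers the correlations were -0.279 to -0.0853. Centring on the group means pushes these below 0 once the others are positive, so they add no separate support. With the replicate block 0 probe sets were called, as without it, and 250 against 72 had an unadjusted p under 0.05.

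Genes named beyond the members are the 5 most like Nr3c1, the 2 of each list with the smallest p for treatment and the 2 for replication, and Sgk1 and Per1; others are marked in the text. The members and lists were chosen with earlier results of these data known. Alternatives were another scaling, pseudocounts and filters, no trend, the replicate block, and leaving out arrays.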

Additional observations from a re-analysis of the deposited data

How the results depend on the processing

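No alternative called a member for treatment or for replication. Over all probe sets treatment gave 0 calls; the replicate block joined with no filter, chosen after seeing the data, gave 6, none of them a member and Sgk1 and Per1 among them, the replicate block alone gave 0, and leaving out arrays gave 0 to 1 (1 without the vehicle array of replication 2). Replication gave 583 calls, 2 without the intensity trend and 44 to 1292 when arrays were left out (44 without vehicle 1, 100 without aldosterone 1, 943 without vehicle 2, 1292 without aldosterone 2); the cause was not tested. Scaling to the median, which moved the median of all probe sets by 0.027, turned the log2 difference of Hsp90aa1 to 0.024, of the first Fkbp4 probe set to 0.025, of Fkbp5 to 0.023 and of Stip1 to 0.019. Leaving out arrays moved Nr3c1 between -0.46 and 0.49, Hsp90aa1 between -0.12 and 0.19, the first Fkbp4 probe set between -0.13 and 0.13, Fkbp5 between -0.063 and 0.10, Stip1 between -0.059 and 0.031 and Ncoa1 between -0.041 and 0.51, so their signs are not settled. Ncoa2 (0.39 to 1.44) and the second Fkbp4 probe set (0.06 to 0.20) kept their sign, which does not settle it. On all 6 arrays their 95% intervals include 0, with and without the replicate block. Ncoa2 was lower with aldosterone in replication 3, and the first Fkbp4 probe set gave -0.002. Without the vehicle array of replication 3, Ncoa2 had an unadjusted p of 0.00717 by limma. Without both arrays of that replication its unadjusted p was also under 0.05. Both fits leave out the highest array of Ncoa2, and in neither did it pass after adjustment. A filter at the 60th percentile leaves out Nr3c1, Ncoa1 and Ncoa2.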
